A study of Bos taurus with 13 samples.

Results

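Bovine mesenchymal stem cells that had spent 6 h at 40.5 °C and then 66 h at 37 °C were compared with cells kept at 37 °C for 3 days. These are 4 of the 13 libraries of the series, 2 of the heated and returned cells (ShortHS_Recovery, called the recovery group here) and 2 of their control (LongNT, the 3-day control). They are all the libraries the series has of these groups. The cells came from umbilical cord, were primary cultures of early passage in serum-containing low-glucose medium, and entered the treatments a day after seeding. The labels do not say whether replicates came from separate animals or cultures, so p-values measure the spread between these libraries, which may be technical. The sample titles give 66 h at 37 °C after the heat, and the design text of the series speaks of 3 days. The other groups, used for the spread and as values set beside the recovery group, were kept for 6 h at 37 °C (ShortNT, n = 3), for 6 h at 40.5 °C (ShortHS, n = 3) and for 3 days at 40.5 °C (LongHS, n = 3). The comparison addresses which transcript levels still differ when a short heat exposure has been over for days.

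Mesenchymal stem cells are adherent stromal cells that can form bone, cartilage and fat cells and that secrete matrix and immune-modulating factors. When cells are warmed above their normal temperature, proteins begin to unfold, the transcription factor HSF1 is released from chaperones, and genes for heat shock proteins are strongly transcribed while much other transcription is reduced. After return to the normal temperature the refilled pool of chaperones shuts HSF1 off again, and the response fades. Changes found days later are therefore a different measurement from the acute response.

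The deposited table names genes by Ensembl identifiers, and none of the 16595 identifiers matched a symbol in the gene table used here. Gene groups by function and the markers of mesenchymal, blood, endothelial and epithelial cells were therefore not analysed here, and the labelled cell type was not checked. The genes are described by level, by response and by their behaviour in each library, and 4 are given by identifier.

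Of the 16595 genes, 13113 (79%) had a normalised value of at least 10 in at least 2 of the 4 libraries and were tested. Replicates 1 and 2 of the recovery group held 32472749 and 14859428 reads, and those of the 3-day control 28048240 and 18902973. Replicate 1 was thus the deeper library in each group. Replicate 3 of the 3 groups that have one stood apart from replicates 1 and 2. The compared groups hold no replicate 3, so in the recovery comparison those libraries entered only the estimate of the spread. They also entered the 6 h and 3-day heat effects, the interaction test and the means that rank genes by level. The main counts are given with and without them.

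Most genes differed little between the recovery group and its control. The median absolute log2 fold change over the tested genes was 0.14, and 11992 genes (91.5%) differed by less than 0.5 on the log2 scale. For comparison, the 2 control libraries differed from each other by a median of 0.16 and the 2 recovery libraries by 0.10. A recovery and a control library differed by a median between 0.15 and 0.19, depending on the pair. Of these 4 pairs, all but that of the replicate 1 libraries differed by more than the control libraries did from each other. Only 135 genes reached an absolute log2 fold change of 1, 76 of them higher and 59 lower after recovery, and 25 of the 135 passed the test that follows.

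With the spread taken from all 13 libraries, 109 genes (0.831% of those tested) passed an adjusted p of 0.05 in limma, which adjusts by the Benjamini-Hochberg method. Of these, 88 (0.671%) were higher and 21 (0.16%) lower after recovery, so 80.7% of the calls were higher. The median log2 fold change was 0.73 for the higher genes, the smallest 0.36 and the largest 2.64, and 21 of them reached 1. For the lower genes the median was -0.63 and the largest fall was -1.89, and 4 of them fell by at least 1 on the log2 scale. In each of the 109 genes both libraries of one group lay above both of the other. This separation alone was common, being met upward by 24.6% and downward by 25.7% of the tested genes.

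Without the replicate 3 libraries, in a fit of replicates 1 and 2 of all 5 groups, 1807 genes (13.8%) passed, 893 (6.81%) higher and 914 (6.97%) lower. All 109 genes were among them. The fold changes are the same in both fits, and only the spread differs: the median residual SD was 0.16 with the replicate 3 libraries and 0.10 without them. The excess of higher genes was not present in the larger list, in which 49.4% were higher. Most of the added differences were small. Of the 1807 genes, 1224 (67.7%) differed by less than 0.5 on the log2 scale and 75 by at least 1. The median log2 fold change was 0.39 for the 893 higher and -0.40 for the 914 lower genes.

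**Figure D1:**
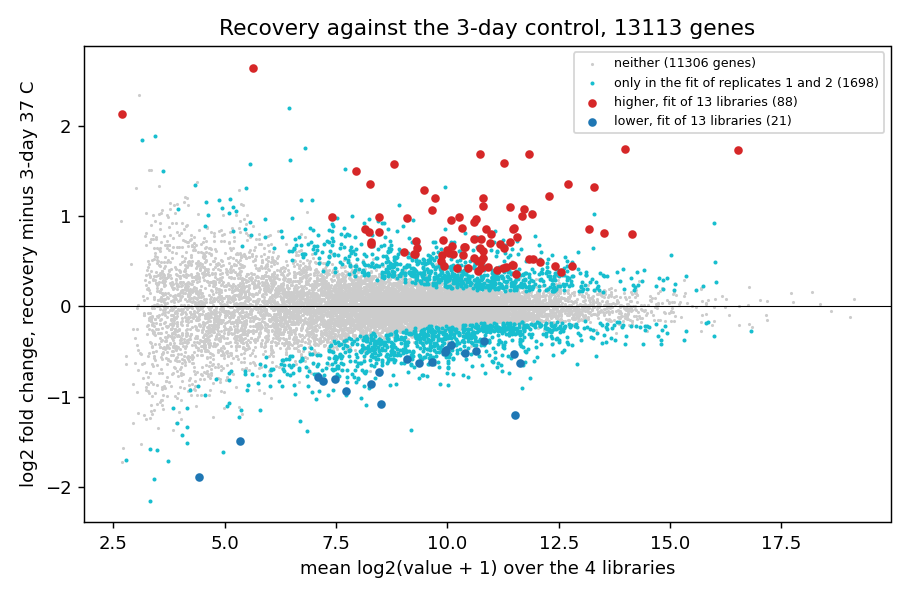
Each point is 1 of the 13113 tested genes, with its mean log2(value + 1) over the 4 libraries on the x axis and its log2 fold change, recovery minus 3-day control, on the y axis. Red (88 higher) and blue (21 lower) genes passed limma's adjusted p of 0.05 in the fit of 13 libraries, and cyan genes passed only in the fit of replicates 1 and 2. The cloud is narrow and centred near 0, and the red genes lie mostly at middle to high levels.

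The calls rose with transcript level. When the tested genes were divided into quartiles by their mean over all 13 libraries, 4 of 3279 genes passed in the lowest quartile, 20 of 3278 (0.61%) in the second, 32 (0.976%) in the third and 53 (1.62%) in the highest. In the fit of replicates 1 and 2 these shares were 4.45%, 12.3%, 15.6% and 22.7%. The differences themselves went the other way: the median absolute log2 fold change was 0.25 in the lowest and 0.11 in the highest quartile. The spread between replicates went with them. The control libraries differed by a median of 0.30 in the lowest and 0.11 in the highest quartile. Fewer calls and a wider spread thus came together at low levels.

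The 10 most abundant transcripts differed little. Among the 10 genes with the highest mean value, the log2 fold changes lay between -0.16 and 0.21 and none passed in limma, edgeR or DESeq2 over the 13 libraries (0 also at limma's unadjusted p of 0.05). Together these 10 genes took 12% and 12.4% of the reads in the control libraries and 12.2% and 12.4% in the recovery libraries. Among the 100 most abundant genes, 1 passed in the fit of 13 libraries, and it rose. In that fit 0.831% of all tested genes passed, so 0 of 10 and 1 of 100 are near the share over all genes. In the fit of replicates 1 and 2, 14 of the 100 were higher and 15 lower, against 6.81% and 6.97% of all tested genes. The median absolute log2 fold change of the 100 was 0.15, against 0.14 over all tested genes. At the other end, 427 genes had no read in either control library and 456 none in either recovery library. None of these reached a mean value of 10 in the other group, where the most reads any of them had was 12 and 10, so the data held no transcript that was well expressed in one group and without reads in the other.

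ENSBTAG00000050861 had the largest rise among the genes that passed in the fit of 13 libraries, from which all 4 genes given by identifier were taken. Its normalised value was 161 and 94.1 in replicates 1 and 2 of the recovery group, and 25.2 and 14.1 in those of the 3-day control. The groups did not overlap, and the lower recovery library was well above the higher control. This was a rise of 2.64 ± 0.37 (SE) on the log2 scale, with an adjusted p of 0.0108 in limma. The call was lost without control replicate 2 (2.25, adjusted p 0.137 in limma) and without recovery replicate 1 (2.26, adjusted p 0.185). Within replicates 1 and 2 it held without each of the 4 libraries, the highest adjusted p being 0.00923 in limma. In the 6 h libraries it was 142, 147 and 162 under heat and 9.03, 4.91 and 10.3 at 37 °C. The level after 66 h of recovery was thus within the range of, or below, the level right after the heat. In the libraries kept at 40.5 °C for 3 days it was 19, 15.5 and 17.8, near the control. The recovery effect minus the 6 h effect of 4.11 was -1.47 on the log2 scale, which did not pass the interaction test (SE 0.48, limma adjusted p 0.0713).

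ENSBTAG00000053293 had the second largest rise among them but a very low level. It had 16 and 8 reads in the recovery libraries and 2 reads in each control library, for normalised values of 12 and 13.2 against 1.74 and 2.56. Over the pooled reads the ratio was 5.99, with an exact 95% interval from 2.06 to 23.8 that covers counting error only. On the log2 scale the rise was 2.12 ± 0.36 (SE), with an adjusted p of 0.0256 in limma. Leaving out any 1 of the 4 libraries ended the call, with values from 1.93 to 2.32 and adjusted p-values from 0.0856 to 0.259 in limma. At equal depth it was 1.89 (adjusted p 0.173 in limma), in DESeq2 2.58 (adjusted p 0.108), and in the 4 libraries fitted alone the adjusted p was 0.0685 in limma. Within replicates 1 and 2 the call held without each of the 4 libraries, with adjusted p-values from 0.00604 to 0.0261 in limma. The gene was also higher after 6 h of heat, with 20.8, 21.4 and 16 against 5.42, 4.09 and 3.44 in the 6 h control. That effect was 1.95 on the log2 scale (SE 0.29, limma adjusted p 0.000543), and it differed from the recovery effect by 0.18 (SE 0.47, limma adjusted p 0.863). Values after 3 days of heat were 13.8, 12.2 and 19.1.

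The fall of ENSBTAG00000011741 was the largest among the 21 lower genes of the fit of 13 libraries, again at a low level. Its values were 9.03 and 11.6 in the recovery libraries and 39.9 and 41 in the controls, from 12 and 7 reads against 46 and 32. It fell by 1.89 ± 0.37 (SE) on the log2 scale, with an adjusted p of 0.0426 in limma. Leaving out any 1 of the 4 libraries ended the call, with values from -2.05 to -1.72 and adjusted p-values from 0.136 to 0.387 in limma. So did reads at equal depth (-1.81, adjusted p 0.0991 in limma) and a pseudocount of 0.5 (-1.93, adjusted p 0.063). Within replicates 1 and 2 the call held without 3 of the 4 libraries and was lost without recovery replicate 1 (-1.72, adjusted p 0.0558 in limma). At 6 h it was 9.41, 7.55 and 5.7 with heat and 16.9, 21.3 and 13.8 without, a difference of -1.10 ± 0.3 (SE) on the log2 scale with an adjusted p of 0.0161 in limma. It had 0 reads in all 3 libraries kept at 40.5 °C for 3 days. The gene was thus lower in each heated group than in its control, and lowest under continued heat.

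ENSBTAG00000014312 fell to 20.3 and 26.4 after recovery, from 60.7 and 74.4 in the controls. On the log2 scale it fell by 1.5 ± 0.27 (SE), with an adjusted p of 0.0311 in limma. Leaving out any 1 of the 4 libraries ended this call too, with values from -1.68 to -1.32 and adjusted p-values from 0.058 to 0.332 in limma, as did reads at equal depth (-1.61, adjusted p 0.0681 in limma). Within replicates 1 and 2 it held without each of the 4 libraries, with adjusted p-values from 0.000333 to 0.0113 in limma. At 6 h its values overlapped between heat (80, 65.5 and 107) and control (78.8, 94.9 and 67.6), with an adjusted p of 0.892 in limma. The recovery effect minus the 6 h effect was -1.55 on the log2 scale, which passed the interaction test (SE 0.34, limma adjusted p 0.0151). The gene was picked for its fall after recovery, which favours passing this test. After 3 days at 40.5 °C the values were 41.5, 44.4 and 53.5, between those of the recovery group and the control.

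**Figure D2:**
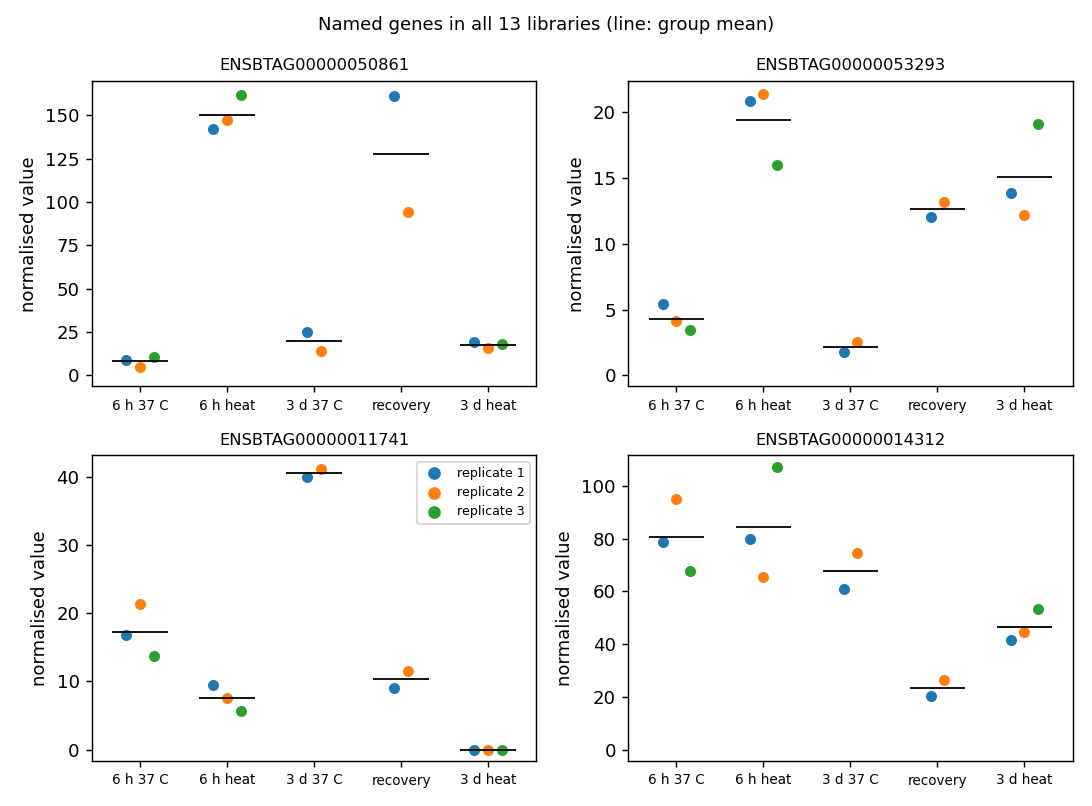
Normalised values of the 4 genes given by identifier are plotted on linear axes in all 13 libraries, 1 point a library coloured by replicate number, with a line at each group mean. The upper genes rose and the lower genes fell after recovery. ENSBTAG00000050861 is high in the 6 h heat and recovery groups, and ENSBTAG00000014312 is lowest in the recovery group.

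Among the 88 higher genes of the fit of 13 libraries, the next 13 by size of rise had log2 fold changes between 1.2 and 1.74 and mean values in the recovery group between 417 and 173315. Their ratios of group means lay between 2.29 and 3.21. In each of the 13 control replicate 1 lay above control replicate 2, from 621 against 499 in the closest pair to 79503 against 33757 in the widest. The size of these rises thus depends on which control library is used. Of these 13 genes, 10 had also passed as higher after 6 h of heat, as 15% of all tested genes did, and 3 had not passed at 6 h. The most abundant of them, the 1 called gene among the 100 most abundant, had values of 190708 and 155923 in the recovery libraries and 79503 and 33757 in the controls. It had been at 123992, 119244 and 115704 after 6 h of heat, against 32573, 30777 and 30954 in the 6 h control. Its recovery values lay above all 6 h heat values, but its 3-day control values also lay above all 6 h control values. Against the control of the same time, its rise on the log2 scale was 1.73 after recovery and 1.93 at 6 h. The recovery effect minus the 6 h effect was -0.19, which did not pass the interaction test (SE 0.36, limma adjusted p 0.801). After 3 days at 40.5 °C the gene was at 45864, 46894 and 45906, between the 3-day control libraries.

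Among the 21 lower genes, the next 8 by size of fall had log2 fold changes between -1.21 and -0.73. Of these, 6 did not pass at 6 h, as 8861 of the 13113 tested genes did not. Another 1 had passed as lower and 1 as higher, against 17.4% and 15% of all tested genes. These counts are near those shares. For 6 of the 8 the recovery effect differed from the 6 h effect by the interaction test, which 11.7% of all tested genes passed. The 8 genes were picked for a large recovery effect, which favours passing it.

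The replicates of each group were also ordered in the called genes. Control replicate 1 lay above control replicate 2 in 74 of the 88 higher genes (84.1%), compared with 47.8% of all tested genes. Recovery replicate 1 lay above recovery replicate 2 in 75 of the 88 (85.2%), against 47.3% of all tested genes. In the 21 lower genes the order was turned, with control replicate 2 above replicate 1 in 19 and recovery replicate 2 above replicate 1 in 17. The effect was accordingly larger against control replicate 2. For the 88 genes the recovery mean exceeded control replicate 1 by a median of 0.61 on the log2 scale and control replicate 2 by 0.90. The 2 control libraries themselves differed by at least 0.5 in 15 of the 88 genes (17%, against 9.4% of all tested genes). Most of these 15 were among the genes with the largest rises. Depth moved with the replicate number, since replicate 1 was the deeper in both groups, and its part in this pattern was measured only for the calls: with reads thinned to the smallest depth, 71 genes passed, 70 of them among the 109 and with the same sign.

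The number of calls changed when single libraries were left out. Each such fit leaves 1 library in a group, which at the same spread widens the standard error and favours fewer calls. In limma with all other libraries kept, 107 genes passed without control replicate 1, of which 71 were among the 109. Without control replicate 2 the number was 10, without recovery replicate 2 it was 17, and without recovery replicate 1 it was 1. In these fits the lone library of a group is assumed to vary like the libraries of the other groups. All 109 genes had the same sign of fold change without any 1 of the 4 libraries. This was fixed in advance, because the groups did not overlap in any of the 109, so it adds nothing on the direction. Across the tested genes, the difference between the replicate 1 libraries and that between the replicate 2 libraries, which share no library, correlated with r = 0.42 (rho 0.47). With the control libraries exchanged, r was 0.29 (rho 0.27). Genes are not independent replicates, so these are descriptions without a p-value. On the recovered reads, edgeR's quasi-likelihood test called 104 genes, 101 of them shared with limma and of the same sign. DESeq2 called more, 313 genes (215 higher and 98 lower), among them 108 of the 109.

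**Figure D3:**
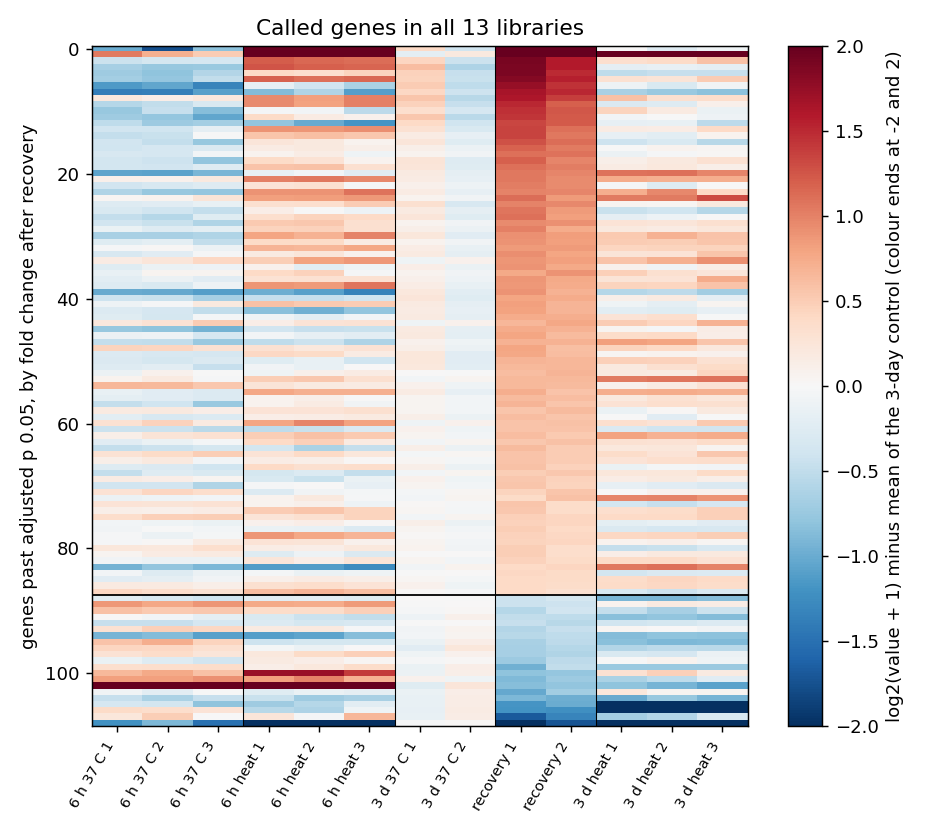
Rows are the 109 genes past limma's adjusted p of 0.05, ordered by fold change after recovery with the 88 higher genes above the line, and columns are the 13 libraries. Colour is log2(value + 1) minus the mean of the 3-day control libraries, and values beyond -2 and 2 take the end colours. Control replicate 1 is slightly red and replicate 2 slightly blue in most upper rows, and the 6 h heat libraries are red in many of them.

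The libraries of the 6 h groups are not part of the recovery comparison, so the 6 h effect of the called genes is a separate measurement, apart from the spread of each gene, which the fit shares. Of the 88 genes higher after recovery, 52 (59.1%) had also passed as higher after 6 h of heat, which 15% of all tested genes did. Only 7 (7.95%) had passed as lower, against 17.4% of all tested genes, and 29 had not passed. Of the 21 lower genes, 6 (28.6%) had passed as lower at 6 h, against 17.4% of all tested genes. Another 2 (9.52%) had passed as higher, against 15%. The other 13 (61.9%) had not passed, as 8861 of the 13113 tested genes had not. In the larger list from replicates 1 and 2, 363 of the 893 higher genes (40.6%) were higher at 6 h in the same fit, against 21.2% of all tested genes, and 160 (17.9%) were lower. Of the 914 lower genes, 421 (46.1%) were lower at 6 h, against 25% of all tested genes, and 113 (12.4%) were higher.

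In the 52 genes that were higher both times, the median log2 fold change was 0.69 at 6 h and 0.90 after recovery, and the median ratio of the recovery effect to the 6 h effect was 1.30. Since these genes were chosen for passing after recovery, the ratio describes them and gives no estimate for the response as a whole. The interaction test was passed by 3 of these 52 genes. For the higher genes that were lower at 6 h, the choice of genes nearly fixes passing this test, and all 7 passed. For the 29 higher genes not called at 6 h, the choice favours passing, and 21 passed. The test therefore adds nothing for either set.

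The reverse view starts from the 6 h effect, which was measured without the recovery libraries. The 21 genes that rose by at least 2 on the log2 scale at 6 h had a median effect of 2.37 then and -0.25 after recovery, and 8 of them (38.1%) had the same sign. Of the 21, 1 passed as higher after recovery, ENSBTAG00000050861, and none as lower, against 0.671% and 0.16% of all tested genes. In the fit of replicates 1 and 2, 4 were higher (19%, against 6.81% of all tested genes) and 5 lower (23.8%, against 6.97%). The 27 genes that fell by at least 2 had a median of -2.25 at 6 h and 0.04 after recovery, 11 with the same sign. None of the 27 passed in limma, edgeR or DESeq2 over the 13 libraries, and 0 had an unadjusted p under 0.05 in limma. Since 0.831% of all tested genes passed in limma, none among 27 is near that share. In the fit of replicates 1 and 2, 1 of the 27 was higher and 1 lower (3.7% each, against 6.81% and 6.97% of all tested genes). Among moderate responders the medians lay near 0, on the side of the 6 h effect. The 760 genes that rose by 0.5 to 1 had a median recovery effect of 0.07, 62.8% of them of the same sign. Of the 760, 24 passed as higher and 1 as lower, against 0.671% and 0.16% of all tested genes. In the fit of replicates 1 and 2 it was 110 higher (14.5%) and 24 lower (3.16%). The 890 genes that fell by 0.5 to 1 had a median of -0.04, with 58.2% of the same sign. Of the 890, 2 passed as lower, which is near the 0.16% of all tested genes. In the fit of replicates 1 and 2, 113 of the 890 were lower (12.7%) and 39 higher (4.38%). For the 8861 genes not called at 6 h the median was -0.01, and 52.7% had the same sign at both times.

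**Figure D4:**
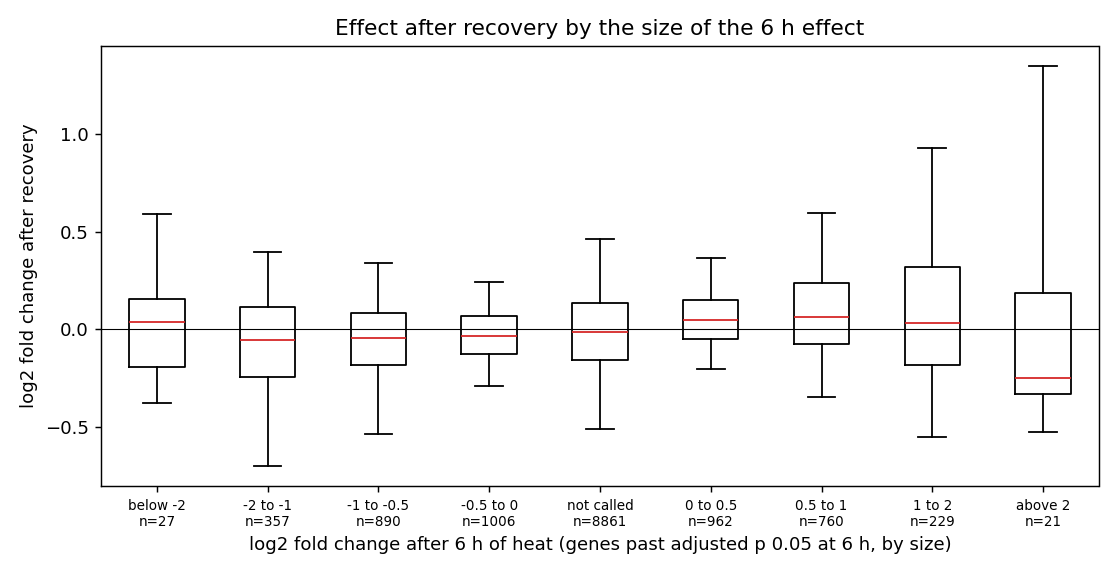
The tested genes are grouped on the x axis by their log2 fold change after 6 h of heat (genes past limma's adjusted p of 0.05 at 6 h, and those not called), and the y axis gives the log2 fold change after recovery. Boxes span the quartiles with the median in red, and whiskers the 5th to 95th percentile. All medians are near 0, and that of the 21 genes above 2 is -0.25.

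The level of the called genes in the other groups places the recovery group further. For the 88 higher genes the median log2(value + 1) was 10.45 and 10.23 in the control libraries and 11.07 and 11.02 in the recovery libraries. It was between 10.02 and 10.12 in the 6 h control, between 10.36 and 10.53 in the 6 h heat group, and between 10.39 and 10.45 after 3 days of heat. In 70 of the 88 genes (79.5%) the recovery group had the highest mean of the 5 groups, compared with 18.6% of all tested genes, a count that the choice of genes higher than one of these groups favours. For the 21 lower genes the median was 9.59 and 9.75 in the control libraries and 9.01 and 9.07 in the recovery libraries. The 3-day heat libraries were lower still, between 8.77 and 8.95. The recovery mean was the lowest of the 5 in 11 of the 21 genes (52.4%), against 17.5% of all tested genes. Choosing genes lower than one of these groups favours this count too. The 3-day heat and recovery comparisons share their control libraries, so no agreement between them is drawn from these values.

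**Figure D5:**
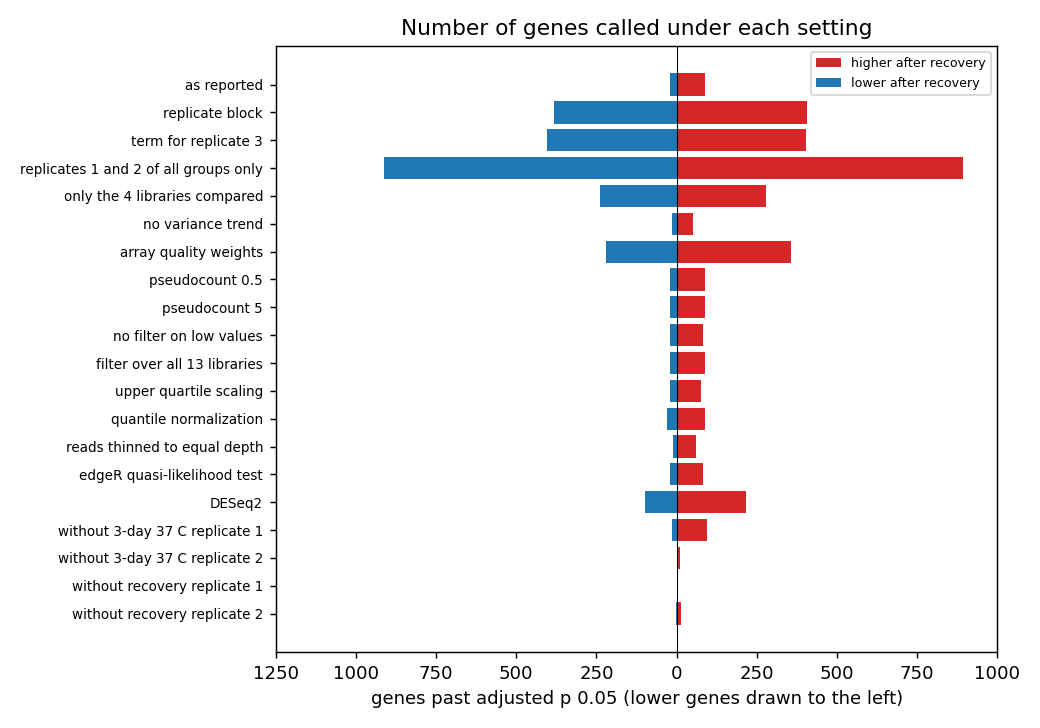
Bars give the number of genes past an adjusted p of 0.05 under each setting, higher genes to the right in red and lower genes to the left in blue. The count of 109 changed little with the pseudocount or filter, rose to 1807 in the fit of replicates 1 and 2, and fell to 1 without recovery replicate 1.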

How the data were processed

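Polyadenylated RNA was sequenced in 13 libraries of cultured cells. The submitters' processing notes name cutadapt, STAR, HTSeq, DESeq and the build ARS-UCD1.2, without versions or settings. The deposited signal is the authors' DESeq-normalised read count of each gene, per the file name and headers. Low values of each library were whole multiples of a step, and dividing by it gave whole reads (within 0.01 reads) for 100% of values. Total reads ran from 14859428 to 39117065 over the 13 libraries. Genes with a value of at least 10 in at least 2 of the 4 libraries compared were kept, and log2(value + 1) was fitted with limma 3.58.1 (R 4.3.3), with a mean-variance trend, 5 group means over 13 libraries and 8 residual degrees of freedom. Fold changes on this scale understate the change of low genes. Tests were two-sided, with p-values adjusted over 13113 genes. Replicates of a group differed beyond sampling noise, with dispersion ratios of 5.48 (control) and 2.31 (recovery) relative to 1 for noise alone. As alternatives, edgeR 4.0.16 (quasi-likelihood test) and DESeq2 1.42.0 were run on the recovered reads, and scalings, filters, pseudocounts, variance models and sets of libraries were varied. The comparison, gene lists and tests were chosen with earlier results of these data known. The lists and the naming rule needed gene symbols. Since 0 identifiers matched one, the lists were not used, and the 2 largest rises and falls that met the rest of the rule were named, a choice made after the values were seen. No coordinates or sequences are given.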

Additional observations from a re-analysis of the deposited data

Results flagged for a closer look

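Of the 109 genes past limma's adjusted p of 0.05 after recovery, 44 had a recovery effect that differed from their 6 h heat effect by the interaction test, 31 higher and 13 lower genes. In 42 of the 44 the recovery effect was the larger in size, and 25 had opposite signs at the 2 times. Over all tested genes 11.7% passed the interaction test. All 44 also passed it in the fit of replicates 1 and 2, which uses the same recovery and control libraries with a smaller spread. That fit is therefore no separate support. The genes were selected on the recovery effect, which favours a larger effect there and passing this test. For ENSBTAG00000014312 the recovery effect minus the 6 h effect was -1.55 on the log2 scale (limma adjusted p 0.0151). The gene was measured at 6 h, and no fall was found there (0.05, SE 0.22, limma adjusted p 0.892). It too was picked for its fall after recovery. Whether time in culture or cell density played a part was not tested.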

How the results depend on the processing

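The 109 calls (88 higher, 21 lower) stayed between 97 and 117 in 7 alternatives: other pseudocounts, filters, scalings and edgeR. They fell to 65 (51 higher) without the variance trend and to 71 (10 lower) at equal depth. DESeq2 gave 313 (215 higher, 98 lower). Alternatives that changed the spread gave more. The fit of replicates 1 and 2 gave 1807 (893 higher, 914 lower), a term for replicate 3 gave 808 (404 each way), array quality weights 576 (356 and 220), and the 4 libraries alone 517 (279 and 238). The share of higher genes, 80.7%, was 61.8% with array quality weights, 54% in the 4 libraries alone and 50% with the replicate 3 term. With the replicate number as a replicate block it was 789 genes (407 higher, 382 lower), among them all 109. Same-numbered libraries of the 2 groups deviated together with r = 0.14 over 13113 genes, and with 2 libraries a group the numbers were not taken to pair them.

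Leaving out each of the 4 libraries gave from 1 to 107 genes, from 1 to 93 higher and from 0 to 14 lower in limma. The 2 fits with 0 lower genes had 377 and 403 lower genes at an unadjusted p under 0.05, and no other tool was run on them. Within replicates 1 and 2, chosen after seeing the data, the counts were 2698 (1240 higher, 1458 lower) without control replicate 1 and 1795 (969 and 826) without control replicate 2. They were 780 (388 and 392) without recovery replicate 1 and 1064 (498 and 566) without recovery replicate 2. In edgeR they were 1821 (945 and 876). The named genes kept their sign in every alternative run. In the fits without 1 library this was fixed in advance, because their groups did not overlap. The sign was also fixed where only the spread or the set of tested genes changed, since the fold changes stayed the same. The planned counts over gene lists were not run, for lack of symbols.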
